A study of Rattus norvegicus with 21 samples.

Results

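The 7 genes followed here encode the 3 estrogen-related receptors (ERRs) and the proteins that switch them on or off, namely Esrra, Esrrb, Esrrg, Perm1, Ppargc1a, Ppargc1b and Nrip1. They were taken by symbol, and all 7 were found among the 17085 symbols of the deposited tables. The data were bulk RNA sequencing of the infarct zone of Sprague Dawley rat hearts, in 7 groups of 3 libraries. In MI1h_F and MI1h_R the left anterior descending coronary artery was tied for 1 h and then reperfused for 23 h, and in MI6h_F and MI6h_R it was tied for 6 h and reperfused for 18 h. In MI24h_F and MI24h it stayed tied for 24 h, and Sham hearts were the controls. All hearts were collected 24 h after the operation. F is not spelled out in the labels. Fenofibrate, a drug that activates PPARα, is named in the design text as a pretreatment, and no Sham group carries F. Nothing in the labels ties the 3 libraries of a group to separate animals, so p-values measure the spread between libraries, which may be technical.

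The ERRs are orphan nuclear receptors. They share sequence with the estrogen receptors but are not known to be switched by estrogen, and their activity depends on the coactivators and corepressors that bind them. In heart muscle they are known for driving genes of mitochondrial respiration, fatty acid oxidation and, for ERRγ, contraction and conduction. PGC-1α (Ppargc1a) and PGC-1β (Ppargc1b) are coactivators of ERRs and of PPARs. PERM1 (Perm1) is a striated muscle protein whose gene is itself a target of PGC-1α and ERR, and which in turn raises the expression of genes of the same programme. RIP140 (Nrip1) is a corepressor that opposes them.

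The sequence upstream of Perm1 and Ppargc1a is shown because these coactivator genes fell in most infarct groups. Each holds a short match there, to part of the ERR site in Perm1 and to the cAMP response element in Ppargc1a. The promoters come from RefSeq on the GRCr8 build, while the counts were made on rn7, and each stretch is the 250 bases before the annotated start, written 5′ to 3′ on the strand of the gene. Capitals mark AAGGTCA in Perm1, the half-site within the longer ERR site TNAAGGTCA. The match lies on the opposite strand and so reads TGACCTT. In Ppargc1a capitals mark the cAMP response element TGACGTCA, a palindrome through which CREB is known to act on this gene. Perm1 lies on the plus strand at chr5:172081999-172082248 and Ppargc1a on the plus strand at chr14:63634058-63634307.
Perm1: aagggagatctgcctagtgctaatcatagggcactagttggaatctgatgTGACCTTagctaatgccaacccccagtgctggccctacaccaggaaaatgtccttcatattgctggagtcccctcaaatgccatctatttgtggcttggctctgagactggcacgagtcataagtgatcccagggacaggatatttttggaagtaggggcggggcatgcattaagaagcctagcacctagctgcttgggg
Ppargc1a: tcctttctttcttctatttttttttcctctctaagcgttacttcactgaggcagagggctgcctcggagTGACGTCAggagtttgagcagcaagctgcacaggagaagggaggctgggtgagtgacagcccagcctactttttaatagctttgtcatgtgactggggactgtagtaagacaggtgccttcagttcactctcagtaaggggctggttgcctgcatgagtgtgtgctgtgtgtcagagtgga
The Perm1 match covers bases 51 to 57 of the stretch and the Ppargc1a match bases 70 to 77. Over windows of 300 bases, which reach 50 bases past the start, AAGGTCA was found on either strand in 1543 of 33469 promoters (4.61%) and TGACGTCA in 612 (1.83%). Perm1 was the only 1 of the 7 genes with AAGGTCA, and none held the longer ERR site TNAAGGTCA, which contains the shorter motif and occurs in 1.20% of promoters. Of 20 listed ERR target genes with a promoter in the table, 1 (Vegfa) held AAGGTCA. A match is a description of these letters, and their absence from this window says nothing about binding elsewhere.

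The libraries held 12208041 to 18393795 counts each, and 11742 symbols passed the filter on low counts, all 7 genes among them. Esrrb exceeded the cutoff of that filter in 17 of 21 libraries, Ppargc1a in 18 and the others in all 21. Levels in CPM below, each count divided by its library's size, use sizes scaled by TMM, an edgeR factor that assumes most genes do not differ, and these factors were 0.996 to 1.17 in the 18 infarct libraries against 0.535 to 0.677 in Sham. Mitochondrial genome transcripts took 11.3% to 20.2% of the counts in infarct libraries and 33.5% to 38.5% in Sham. Single libraries are named by their group and the number in their label. The Sham libraries differed among themselves. Monocyte and macrophage markers (14 genes) summed to 2849 TPM in Sham 31, against 550 TPM in Sham 11 and 427 TPM in Sham 41. Atrial markers (5 genes) summed to 1355 TPM in Sham 31, against 177 TPM in Sham 11 and 85.1 TPM in Sham 41. Averaged over all libraries this sum was nearly all Nppa (2192 TPM, with Myl7 next at 5.73 TPM). The single atrial markers in Sham 31 are not given, and whether that library held atrial tissue was not tested. In Sham 31 and 41 log2 CPM declined by 0.22 and 0.18 per doubling of gene length relative to the mean library, while in Sham 11 it increased by 0.05. Sham 11 had the highest level of Esrrb, Esrrg, Perm1, Ppargc1a, Ppargc1b and Nrip1 of the 3. The 13 cardiomyocyte markers with a row, none of which was below 1 TPM in all libraries, summed to 3104 to 21605.5 TPM in the infarct libraries and 38338 to 50438.5 TPM in Sham. In bulk tissue, fewer cardiomyocytes and less RNA per cardiomyocyte cannot be told apart.

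The genes differed widely in level. On the TPM scale, which corrects for length, Esrra and Perm1 were the highest in Sham, at 51.7 ± 2.31 and 49.2 ± 19.98 TPM (SD, n = 3 each). Esrrg had 6.08 ± 4.10 TPM in Sham, Ppargc1a 4.72 ± 3.69, Ppargc1b 2.83 ± 2.51, Esrrb 2.60 ± 2.17 and Nrip1 2.02 ± 2.19 TPM, and these 5 ranges overlapped. In MI24h Esrra was at 62.1 ± 3.42 TPM, Nrip1 at 5.81 ± 2.15 and Perm1 at 2.58 ± 0.452 TPM (SD, n = 3 each). Of the summed TPM of the 3 ERR genes, Esrra made up 80.5% to 89.0% in MI1h_F, 91.8% to 94.6% in MI1h_R, 81.0% to 92.2% in MI6h_F, 91.8% to 96.2% in MI6h_R, 91.7% to 94.6% in MI24h_F, 90.3% to 95.5% in MI24h and 75.6% to 92.0% in Sham. ERRα therefore made up the bulk of ERR transcripts in every library. The estrogen receptor genes themselves were hardly detected, with at most 20 counts of Esr1 and 2 of Esr2 in any library, and neither was tested.

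**Figure D1:**
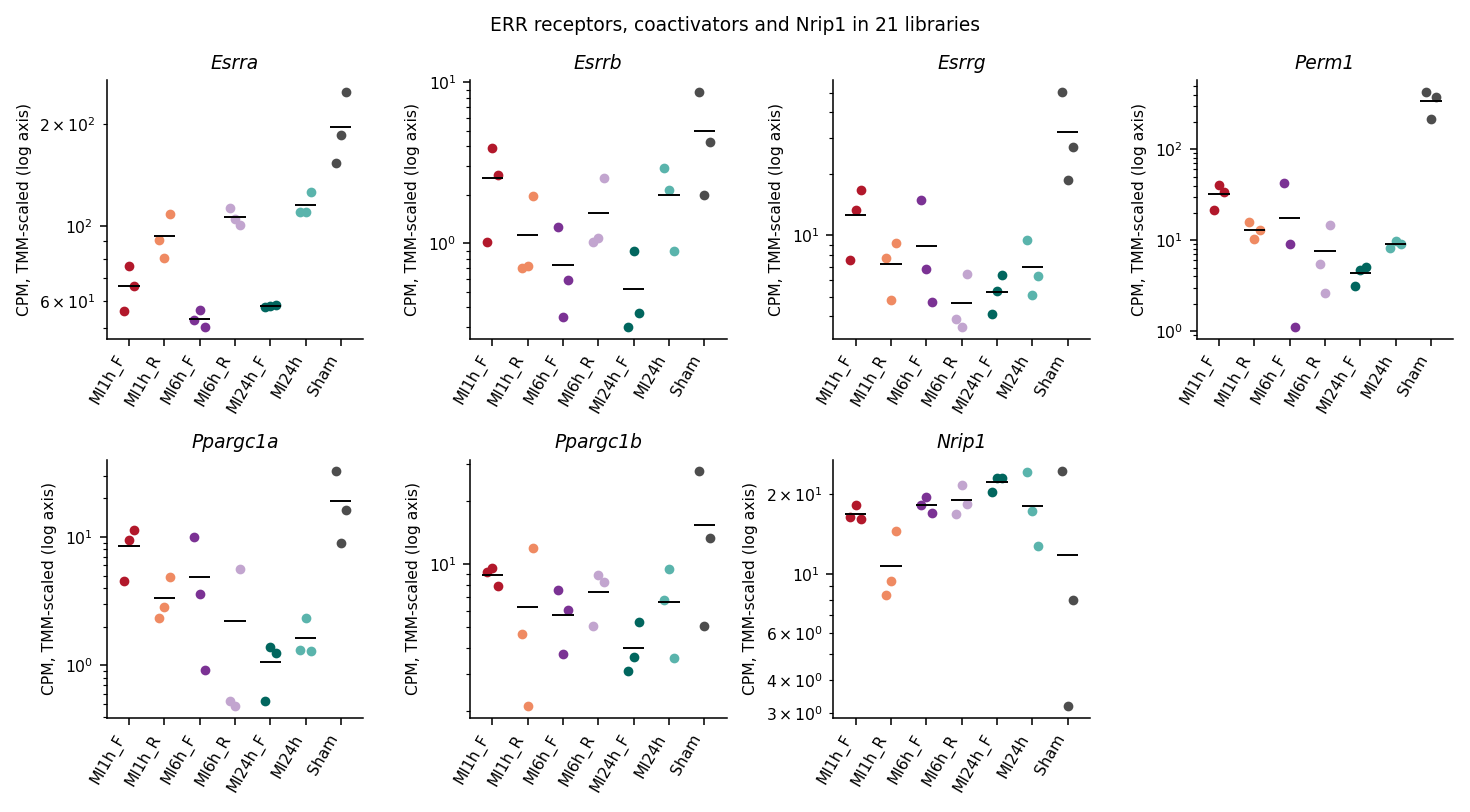
TMM-scaled CPM of the 7 genes in each of 21 libraries on log axes, with points for libraries and a bar for the group mean. Perm1 lies between 1.12 and 42.5 CPM in the infarct libraries and between 215 and 426 CPM in Sham, and Esrra lies lower in every library with F than in every infarct library without it.

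Each infarct group was set against Sham to ask how the ERR system stands in the infarct zone 24 h after injury. With edgeR's quasi-likelihood test and an adjusted p under 0.05, Esrra, Esrrg and Perm1 fell in all 6 comparisons, Ppargc1a in 5 and Esrrb in 4. Ppargc1b fell in MI6h_F and MI24h_F, and Nrip1 passed in none. The count of falling genes was 3 of 7 in MI1h_F, where 24.2% of the 11742 genes fell and 23.9% rose, and 5 of 7 in MI1h_R, where 24.1% fell and 25.4% rose. It was 6 of 7 in MI6h_F, with 28.5% of all genes down and 28.6% up, and 5 of 7 in MI6h_R, with 28.0% down and 29.3% up. In MI24h_F it was 6 of 7 beside 30.1% of all genes down and 30.7% up, and in MI24h 4 of 7 beside 26.2% down and 28.0% up. The median log2 fold change of the 7 was -1.18 in MI1h_F, -2.12 in MI1h_R, -1.89 in MI6h_F, -1.69 in MI6h_R, -2.60 in MI24h_F and -1.33 in MI24h. Over all genes tested the median lay between 0.03 and 0.07. The 6 comparisons share the same 3 Sham libraries. Without Sham 11 the number of the 7 called was 3 in MI1h_F, 4 in MI1h_R, 5 in MI6h_F, 5 in MI6h_R, 6 in MI24h_F and 5 in MI24h, Nrip1 upward among them. Without Sham 31 it was 3 in MI1h_F and 6 in each of the other 5. The share of all genes called without either library is not given, so these counts describe the members alone.

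Perm1 had the largest difference of the 7 in each of these comparisons. Its level was 21.5, 40.3 and 34.2 CPM in MI1h_F, 15.9, 10.4 and 13.1 CPM in MI1h_R, 42.5, 8.998 and 1.12 CPM in MI6h_F and 5.53, 2.65 and 14.9 CPM in MI6h_R. It was 3.18, 4.77 and 5.06 CPM in MI24h_F and 8.23, 9.84 and 9.05 CPM in MI24h, against 426, 215 and 375 CPM in Sham. Every infarct library was below every Sham library, and the infarct group closest to Sham was MI1h_F. The log2 fold change was -3.40 ± 0.76 in MI1h_F (SE, adjusted p = 0.00136), -4.69 ± 0.81 in MI1h_R (adjusted p = 0.000136) and -4.27 ± 0.79 in MI6h_F (adjusted p = 0.000188). It was -5.46 ± 0.84 in MI6h_R (adjusted p = 2.87e-05), -6.28 ± 0.89 in MI24h_F (adjusted p = 8.83e-06) and -5.23 ± 0.83 in MI24h (adjusted p = 4.67e-05). The fitted level was 0.0128 to 0.0945 of that in Sham. By group mean the order was Sham, MI1h_F, MI6h_F, MI1h_R, MI24h, MI6h_R and MI24h_F. Of neighbours in it, only Sham and MI1h_F, and MI1h_R and MI24h, did not overlap.

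Esrrg, which encodes ERRγ, also fell in every infarct group. It had 7.55, 13.4 and 16.7 CPM in MI1h_F, 7.69, 4.79 and 9.14 CPM in MI1h_R, 14.9, 6.85 and 4.73 CPM in MI6h_F and 3.88, 3.55 and 6.45 CPM in MI6h_R. In MI24h_F it had 4.08, 5.34 and 6.38 CPM and in MI24h 9.47, 5.07 and 6.31 CPM, against 50.4, 18.6 and 27.1 CPM in Sham. On the TMM scale no infarct library reached the lowest Sham library, and all neighbouring infarct groups overlapped. In TPM, MI1h_F 4 (5.34), MI1h_F 5 (5.99) and MI6h_F 1 (5.7) lay above Sham 31 (3.51) and Sham 41 (3.92). MI24h 11 (3.52) was level with Sham 31. Log2 fold changes were -1.35 ± 0.43 in MI1h_F (SE, adjusted p = 0.0157), -2.15 ± 0.45 in MI1h_R (adjusted p = 0.000681) and -1.86 ± 0.44 in MI6h_F (adjusted p = 0.00161). They were -2.79 ± 0.46 in MI6h_R (adjusted p = 5.55e-05), -2.60 ± 0.46 in MI24h_F (adjusted p = 9.04e-05) and -2.20 ± 0.45 in MI24h (adjusted p = 0.000462). In MI1h_F the call was lost without Sham 11 (-0.86, adjusted p = 0.108) and without MI1h_F 1 (-1.09, adjusted p = 0.0807).

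Esrrb, which encodes ERRβ, was the scarcest receptor, with 4 to 62 counts per infarct library and 22 to 92 per Sham library. It had 1.02, 3.89 and 2.66 CPM in MI1h_F, 0.699, 0.726 and 1.97 CPM in MI1h_R, 1.26, 0.346 and 0.591 CPM in MI6h_F and 1.02, 1.08 and 2.54 CPM in MI6h_R. In MI24h_F it had 0.303, 0.890 and 0.367 CPM and in MI24h 2.91, 2.14 and 0.891 CPM, against 8.69, 2.00 and 4.28 CPM in Sham. On the TMM scale MI1h_R, MI6h_F and MI24h_F lay wholly below Sham, and all neighbouring groups in the order of means overlapped. In TPM, MI1h_R and MI6h_F overlapped Sham, at up to 1.97 and 1.31 TPM against 1.03 TPM in Sham 31. The log2 fold change was -2.12 ± 0.67 in MI1h_R (SE, adjusted p = 0.0142), -2.75 ± 0.70 in MI6h_F (adjusted p = 0.00271), -1.69 ± 0.65 in MI6h_R (adjusted p = 0.0341) and -3.22 ± 0.73 in MI24h_F (adjusted p = 0.000917). In MI1h_F it was -0.98 ± 0.64 (adjusted p = 0.217) and in MI24h -1.33 ± 0.65 (adjusted p = 0.0905). The calls in MI1h_R and MI6h_R were lost without Sham 11, at -1.44 (adjusted p = 0.1001) and -0.99 (adjusted p = 0.225). They were also lost without MI1h_R 11 (adjusted p = 0.0574) or MI1h_R 31 (adjusted p = 0.0572), and without MI6h_R 11 (adjusted p = 0.112), MI6h_R 21 (adjusted p = 0.113) or Sham 41 (adjusted p = 0.0527). In MI24h the fall was called without Sham 31 (-1.69, adjusted p = 0.0390).

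Ppargc1a, the inducible PGC-1 coactivator, fell in 5 of the 6 groups. It had 4.54, 9.54 and 11.2 CPM in MI1h_F, 2.33, 2.83 and 4.89 CPM in MI1h_R, 10.02, 3.599 and 0.919 CPM in MI6h_F and 0.533, 0.482 and 5.68 CPM in MI6h_R. In MI24h_F it had 0.529, 1.40 and 1.25 CPM and in MI24h 1.31, 2.32 and 1.303 CPM, against 32.3, 9.01 and 16.1 CPM in Sham. On the TMM scale MI1h_F and MI6h_F overlapped Sham, and the other 4 groups did not. In TPM, MI1h_R and MI6h_R overlapped Sham too, at up to 3.16 and 2.99 TPM against 2.2 TPM in Sham 31. The log2 fold change was -2.51 ± 0.82 in MI1h_R (SE, adjusted p = 0.0164), -1.98 ± 0.80 in MI6h_F (adjusted p = 0.0412), -3.10 ± 0.84 in MI6h_R (adjusted p = 0.00420), -4.16 ± 0.91 in MI24h_F (adjusted p = 0.000675) and -3.53 ± 0.87 in MI24h (adjusted p = 0.00220). In MI1h_F it was -1.18 ± 0.77 (adjusted p = 0.218). Without Sham 11 the calls in MI1h_R (-1.89, adjusted p = 0.0745) and MI6h_F (-1.36, adjusted p = 0.174) were lost. The first was also lost without MI1h_R 11 (adjusted p = 0.0597) or 31 (adjusted p = 0.0543), and the second without MI6h_F 2 (adjusted p = 0.120), MI6h_F 4 (adjusted p = 0.139) or Sham 41 (adjusted p = 0.0588).

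Its sister coactivator gene Ppargc1b had 2.10 to 11.99 CPM over the 18 infarct libraries, with a median of 6.41, against 27.7, 5.10 and 13.4 CPM in Sham. The infarct groups all overlapped Sham. It fell in MI6h_F (-1.42 ± 0.56, SE, adjusted p = 0.0383) and MI24h_F (-1.94 ± 0.57, adjusted p = 0.00704), and both calls were lost without Sham 11 (-0.65, adjusted p = 0.335, and -1.16, adjusted p = 0.0870). The MI6h_F call was lost as well without MI6h_F 2 (adjusted p = 0.135), MI6h_F 4 (adjusted p = 0.0781) or Sham 41 (adjusted p = 0.0608). In the other 4 groups the log2 fold change was between -1.29 and -0.79, with adjusted p from 0.0627 to 0.250. Without Sham 31 it was called in MI1h_R (-1.68, adjusted p = 0.0147), MI6h_R (-1.43, adjusted p = 0.0294) and MI24h (-1.61, adjusted p = 0.0171), and in MI1h_R also without MI1h_R 41 (-2.18, adjusted p = 0.00606).

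Nrip1, the corepressor, had 16.04 to 22.97 CPM in the 9 libraries with F and 8.32 to 24.2 CPM in the 9 infarct libraries without it, against 24.3, 3.19 and 8.01 CPM in Sham. In CPM, Sham 11 was as high as the highest infarct library, and the other Sham libraries were lower than all infarct libraries. Log2 fold changes lay between -0.13 and 0.90, with adjusted p from 0.0826 to 0.821. Whether Nrip1 was called depended on the Sham libraries used and on the scaling. In limma on log2(TPM + 1) it was called higher in 5 groups, all but MI1h_R (0.67, adjusted p = 0.0966). Without Sham 11, Nrip1 was called higher in MI1h_F (1.61, adjusted p = 0.000923), MI1h_R (0.96, adjusted p = 0.0247), MI6h_F (1.73, adjusted p = 0.000365), MI6h_R (1.79, adjusted p = 0.000268), MI24h_F (2.02, adjusted p = 7.79e-05) and MI24h (1.70, adjusted p = 0.000477).

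Esrra, which encodes ERRα, fell on the TMM scale, and its call depended on the scaling. It had 56.0, 76.2 and 66.4 CPM in MI1h_F, 91.0, 80.2 and 109 CPM in MI1h_R, 52.7, 56.4 and 50.2 CPM in MI6h_F and 113, 105 and 101 CPM in MI6h_R. In MI24h_F it had 57.3, 57.8 and 58.3 CPM and in MI24h 110, 110 and 126 CPM, against 153.8, 186.0 and 249.2 CPM in Sham. All infarct libraries were below Sham on this scale. The log2 fold change was -1.57 ± 0.17 in MI1h_F (SE, adjusted p = 2.84e-06), -1.07 ± 0.16 in MI1h_R (adjusted p = 4.35e-05), -1.89 ± 0.17 in MI6h_F (adjusted p = 1.81e-07), -0.89 ± 0.16 in MI6h_R (adjusted p = 0.000166), -1.76 ± 0.17 in MI24h_F (adjusted p = 1.48e-07) and -0.77 ± 0.16 in MI24h (adjusted p = 0.000671). With library size alone, which moved the median of all genes up by 0.80 to 0.91, the 3 groups without F gave -0.27, -0.01 and -0.01 in MI1h_R, MI6h_R and MI24h, with no call. On the deposited TPM, Esrra had 65.41, 69.77 and 60.9 TPM in MI6h_R and 60.45, 66.01 and 59.77 TPM in MI24h, all above the 49.11, 52.25 and 53.61 TPM in Sham. In the 3 groups with F the fall was called on every one of these scales. Perm1 fell in all 6 groups under TMM, library size alone and TPM. With library size alone Esrrg was called lower in 5 groups, all but MI1h_F (-0.58, adjusted p = 0.251), Ppargc1a in 3 (MI6h_R, MI24h_F and MI24h), Esrrb in 2 (MI6h_F and MI24h_F) and Ppargc1b in none. Nrip1 was called higher in 5 on that scale, all but MI1h_R (0.62, adjusted p = 0.247). In limma on log2(TPM + 1), Esrrg was called lower in 4 groups (MI1h_R, MI6h_R, MI24h_F and MI24h), Ppargc1a in 2 (MI6h_R and MI24h_F), Esrrb in 1 (MI24h_F) and Ppargc1b in none. For library size alone and for TPM the share of all genes called is not given, so these calls describe the members alone. On TPM, Esrrb, Ppargc1a and Ppargc1b were at 0.09, 0.03 and 0.37 in MI1h_F, above Sham instead of below it.

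Cardiomyocyte markers fell in the same comparisons, so the counts were also expressed per 1000 counts of the 13 markers. Perm1 had 2.03, 2.48 and 1.88 per 1000 in MI1h_F, 1.10, 0.684 and 1.19 in MI1h_R, 4.34, 2.07 and 0.297 in MI6h_F and 0.807, 0.576 and 1.33 in MI6h_R. It had 1.26, 0.936 and 1.15 in MI24h_F and 0.953, 0.819 and 0.673 in MI24h, against 5.53, 3.63 and 3.28 in Sham. Relative to the markers Perm1 was below Sham without overlap in 5 groups, the exception being MI6h_F, whose library 1 lay within Sham. In an edgeR fit scaled to these markers its log2 fold change was -2.07 in MI1h_R (adjusted p = 0.000976), -2.19 in MI6h_R (adjusted p = 0.000485), -2.35 in MI24h (adjusted p = 0.000271) and -1.90 in MI24h_F (adjusted p = 0.00188). It was -0.96 in MI1h_F (adjusted p = 0.0894) and -0.88 in MI6h_F (adjusted p = 0.112). On this yardstick the median of all genes moved up by 2.47 to 4.46, and the share of genes called lower was 0.409% in MI1h_F, 1.04% in MI1h_R, 0.341% in MI6h_F, 0.843% in MI6h_R, 0.707% in MI24h_F and 1.43% in MI24h. The share called higher was 87.2% in MI1h_F, 87.5% in MI1h_R, 94.7% in MI6h_F, 92.4% in MI6h_R, 95.0% in MI24h_F and 88.8% in MI24h. None of the other 6 genes was called lower in any of them, and upward calls were made for Nrip1 and Ppargc1b in 6 groups and for Esrra in 5, all but MI1h_F (0.90, adjusted p = 0.0615). Esrrg was called higher in MI1h_F, MI6h_F and MI24h_F, Esrrb in MI6h_R and MI24h, and Ppargc1a in MI6h_F. Relative to the markers Ppargc1a was at 1.20 in MI1h_F, 0.15 in MI1h_R, 1.57 in MI6h_F, -0.003 in MI6h_R, 0.12 in MI24h_F and -0.69 in MI24h, with adjusted p of 0.0198 in MI6h_F and from 0.0714 to 0.996 in the others. Esrrg lay between 0.48 and 1.86 and Esrrb between 0.57 and 1.72, all below the median of all genes in their comparison.

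**Figure D2:**
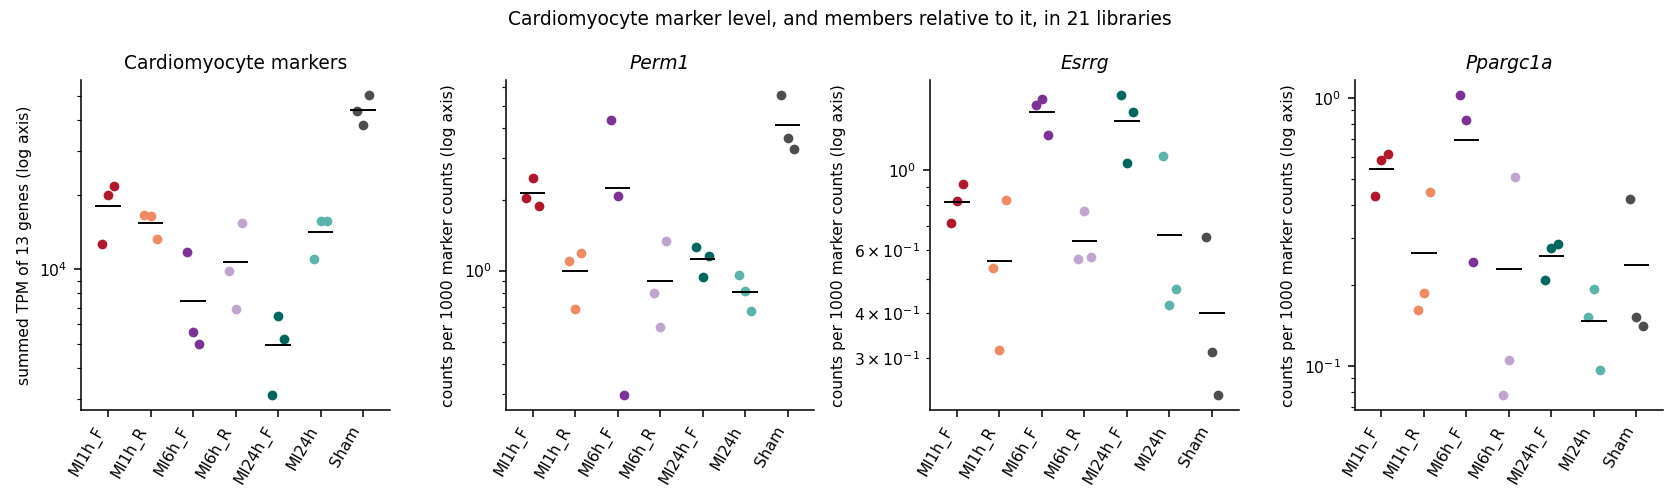
Summed TPM of 13 cardiomyocyte markers and the counts of Perm1, Esrrg and Ppargc1a per 1000 counts of those markers, per library, on log axes with bars for group means. The markers run from 3104 to 21605.5 TPM in infarct libraries and 38338 to 50438.5 TPM in Sham, and Perm1 relative to them is 0.576 to 1.33 in the 9 infarct libraries without F and 3.28 to 5.53 in Sham.

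The listed partners and targets of these genes gave a setting for the result. Of 26 ERR target genes tested, 26 fell in MI1h_F, 26 in MI1h_R, 26 in MI6h_F, 25 in MI6h_R, 24 in MI24h_F and 24 in MI24h, with none rising, and their median log2 fold change was between -3.09 and -2.27. With library size alone 23 to 25 fell and at most 2 rose. The share of all genes called on that scale is not given, here or for the lists below. Scaled to the cardiomyocyte markers 1 to 3 fell and 2 to 19 rose, beside 0.341% to 1.43% of all genes called lower and 87.2% to 95.0% called higher. Most of the list was thus not called lower relative to those markers, but it rose less often than genes in general. In MI1h_R the smallest p-values belonged to Etfdh of fatty acid oxidation (-2.82 ± 0.27, SE), Cyc1 of complex III (-2.27 ± 0.23), Ndufa8 of complex I (-2.26 ± 0.23) and the mitochondrial deacetylase Sirt3 (-2.15 ± 0.22). Contractile and ion-handling genes fell too, 11 of 15 in MI1h_F and 13 to 14 of 15 in the other groups, with 1 rising in MI24h_F and in MI24h, and 10 to 13 of the 13 cardiomyocyte markers fell in each. Scaled to those markers, of which 8 are also on the contractile list, 3 to 7 of the 15 rose and 0 to 2 fell. Of 6 PPAR and RXR genes, which encode the other receptors served by PGC-1α, 3 fell in MI1h_F and 4 in each other group, led by Rxrg at -4.27 ± 0.80 in MI1h_R and -5.63 ± 0.86 in MI24h. Rxra rose in MI6h_R (0.77, adjusted p = 0.0334). Of these 6 genes only 1 to 3 fell and 1 or 2 rose with library size alone. Neutrophil markers rose, with 9 or 10 of 11 called in every comparison, and of 14 monocyte and macrophage markers 8 to 10 rose and 2 or 3 fell. Their part in the result was not tested.

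Other coactivators and corepressors went several ways, and among 7 other coactivators 1 to 4 rose and at most 1 fell in each comparison. Pprc1, a relative of PGC-1α that responds to growth signals, rose by 1.66 ± 0.17 in MI1h_R (SE, adjusted p = 1.81e-06) and 2.07 ± 0.17 in MI24h (adjusted p = 1.51e-07), opposite to Ppargc1a. Of the 8 corepressors tested, 2 to 4 rose and 2 fell in each comparison. Mybbp1a rose by 1.54 ± 0.15 in MI1h_R and 1.86 ± 0.15 in MI24h, and Nr0b2, which encodes SHP, fell by 4.26 and 5.31 on the log2 scale. Prox1, a corepressor reported to bind ERRα, fell in MI1h_R (-3.07 ± 0.71, adjusted p = 0.00162) and MI24h (-2.49 ± 0.69, adjusted p = 0.00522). Of 7 enzymes that modify PGC-1α, 3 to 5 rose and 1 or 2 fell in each comparison. The acetyltransferase gene Kat2a rose by 0.59 ± 0.13 in MI1h_R and 1.03 ± 0.13 in MI24h, and the AMP kinase gene Prkaa1 by 1.10 ± 0.23 and 1.31 ± 0.23. Fbxw7, a ubiquitin ligase gene, fell by 0.83 in MI1h_R and by 0.69 in MI24h on the log2 scale. Prkaa2, the other catalytic AMP kinase gene, fell in MI1h_R (-1.77 ± 0.62, adjusted p = 0.0242), MI6h_R (-1.98 ± 0.62, adjusted p = 0.0114), MI24h_F (-2.23 ± 0.63, adjusted p = 0.00532) and MI24h (-1.84 ± 0.62, adjusted p = 0.0180). Of 9 mitochondrial biogenesis factors 4 fell in each comparison and 1 to 4 rose, whereas with library size alone 5 rose and at most 1 fell. With library size alone 5 of the 7 other coactivators, 6 of the 8 corepressors and 5 of the 7 enzymes rose in each comparison. Of 7 known activators of the Ppargc1a gene, 1 or 2 rose in each comparison. Creb1 rose in all 6, by 0.75 ± 0.30 in MI1h_R (adjusted p = 0.0439) and by 1.38 ± 0.30 in MI6h_F (adjusted p = 0.000748). Atf2 rose in MI6h_F (1.06, adjusted p = 0.00446) and MI24h_F (0.94, adjusted p = 0.00943), and Crtc3 in MI6h_R (0.99, adjusted p = 0.0273). The call for a fall was Mef2d in MI1h_R (-0.79 ± 0.25, adjusted p = 0.0125). Of the 7 activators 1 to 6 rose and none fell with library size alone. That scale moved the median of all genes up, and the share of all genes called on it is not given. The rises and falls on it are therefore not shown to be particular to these lists.

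The next question of the design was whether reperfusion and its timing changed the ERR system, which the series title links to early reperfusion. Without F, no member was called by edgeR. In MI1h_R against MI24h the 7 log2 fold changes lay between -0.79 and 1.02 with adjusted p from 0.299 to 0.957, beside 4.32% of all genes called. Perm1 was 15.9, 10.4 and 13.1 CPM in MI1h_R and 8.23, 9.84 and 9.05 CPM in MI24h, without overlap but with a difference of 0.53 ± 0.73 (SE, adjusted p = 0.711). Esrrg differed by 0.06 ± 0.44 (adjusted p = 0.957) and Esrrb by -0.79 ± 0.67 (adjusted p = 0.530), differences smaller than or close to their errors. In MI6h_R against MI24h the range was -0.58 to 0.43 (adjusted p from 0.853 to 0.989, 0.502% of all genes called), and in MI1h_R against MI6h_R -0.81 to 0.77 (adjusted p from 0.279 to 0.824, 2.41% called). At an unadjusted p under 0.05, 0 of the 7 passed in all 3, and DESeq2 and limma on log2(TPM + 1) called 0 as well. Of the 26 ERR targets 0 rose and 2 fell in MI1h_R against MI24h.

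With F, 3 of the 7 rose in MI1h_F against MI24h_F. Perm1 had 21.5, 40.3 and 34.2 CPM in MI1h_F against 3.18, 4.77 and 5.06 CPM in MI24h_F, a log2 fold change of 2.88 ± 0.78 (SE, adjusted p = 0.0200). Ppargc1a had 4.54, 9.54 and 11.2 CPM in MI1h_F against 0.529, 1.40 and 1.25 CPM in MI24h_F (2.97 ± 0.88, adjusted p = 0.0295). Esrrb had 1.02, 3.89 and 2.66 CPM in MI1h_F against 0.303, 0.890 and 0.367 CPM in MI24h_F (2.24 ± 0.72, adjusted p = 0.0421). All 3 rose, and none of them overlapped between the groups, though the share of all genes without overlap was not counted. Of all genes 8.87% rose and 6.74% fell. Esrrg (1.25 ± 0.44, adjusted p = 0.0635) and Ppargc1b (1.15 ± 0.57, adjusted p = 0.175) did not overlap between the groups but missed the threshold, Esrra differed by 0.19 ± 0.16 (adjusted p = 0.446) and Nrip1 by -0.39 ± 0.43 (adjusted p = 0.571). The 3 calls were near the limit. All 3 were lost when MI1h_F 4 or 5 or any MI24h_F library was left out, with adjusted p between 0.0532 and 0.182. Without MI1h_F 1, Esrrg was called too (1.51, adjusted p = 0.0407). A fit of these groups alone called 5 of the 7 higher and Nrip1 lower, beside 16.0% of its genes higher and 14.9% lower.

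Cardiomyocyte genes moved with that result. The 13 markers summed to 12645 to 21605.5 TPM in MI1h_F against 3104 to 6495 TPM in MI24h_F, and 11 of 13 rose while 0 fell. Of 26 ERR targets 19 rose and 2 fell, and 12 of 15 contractile and ion-handling genes rose and 1 fell. Scaled to the cardiomyocyte markers 1 ERR target rose and 17 fell, on a scale where the median over all genes was -1.92. The share of all genes called on it is not given, so this fall is not shown to be particular to the list. Neutrophil markers summed to 980 to 2700 TPM in MI1h_F against 4026 to 6031 TPM in MI24h_F, and 7 of 11 fell. Scaled to the cardiomyocyte markers, Perm1 was 0.94 higher (adjusted p = 0.106), Ppargc1a 1.07 higher (adjusted p = 0.127) and Esrrb 0.34 higher (adjusted p = 0.665), beside a median of -1.92 over all genes. None of the 3 was called on that scale. Among the other members Esrra was called lower on it (-1.80, edgeR, adjusted p = 0.00110), near the median of all genes.

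In MI6h_F the libraries differed among themselves. MI6h_F 1 carried 42.5 CPM of Perm1 and 10.02 CPM of Ppargc1a, MI6h_F 2 carried 8.998 and 3.599, and MI6h_F 4 carried 1.12 and 0.919 CPM. The cardiomyocyte markers summed to 11724, 5592 and 4981 TPM in the same libraries, so the library that was high in the 2 coactivators was high in the markers. MI6h_R showed the same in library 31, with 14.9 CPM of Perm1, 5.68 CPM of Ppargc1a and 15350.5 TPM of markers, against 2.65 to 5.53 CPM, 0.482 to 0.533 CPM and 6879 to 9860 TPM in the others. In MI6h_F against MI24h_F edgeR called 0 of the 7 beside 0.485% of all genes, with Perm1 at 2.01 ± 0.77 (SE, adjusted p = 0.363) and Ppargc1a at 2.18 ± 0.87 (adjusted p = 0.410), both with an unadjusted p under 0.05. In MI1h_F against MI6h_F it called 0 of the 7 and 0% of all genes, although 1597 genes and 1 of the 7, Esrrb (1.77 ± 0.69, adjusted p = 0.295), had an unadjusted p under 0.05. There DESeq2 called 88 genes and limma on log2(TPM + 1) called 0, none of the 7 in either. Without MI6h_F 1, Perm1 was called in that comparison (2.67, adjusted p = 0.0490).

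Each injury was then compared with and without F. Esrra was the gene of the 7 that fell. Its level was 50.2 to 76.2 CPM with a median of 57.3 in the 9 libraries with F, against 80.2 to 126 CPM with a median of 109 in the 9 infarct libraries without F, and the groups did not overlap. Averaged over the 3 injuries the log2 fold change was -0.83 ± 0.09 (SE, edgeR, adjusted p = 4.14e-05), which is 0.563 of the level without F and the 14th smallest p of 11742 genes. In this average 15.7% of all genes fell and 11.3% rose. Esrra had a log2 fold change of -0.997 ± 0.16 in MI6h_F against MI6h_R (adjusted p = 0.00363), where 1 of the 7 and 9.62% of all genes were called, and -0.99 ± 0.16 in MI24h_F against MI24h (adjusted p = 0.00276), where 1 of the 7 and 13.0% were called. In MI1h_F against MI1h_R it was -0.50 ± 0.16 (adjusted p = 0.169), where 0 of the 7 and 0.0766% of all genes were called and Esrra alone of the 7 had an unadjusted p under 0.05. DESeq2 and limma also called 0 of the 7 there. In TPM the levels were 28.9 to 45.4 with F against 36.8 to 69.8 without F, which overlapped through MI1h_F and MI1h_R.

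The F libraries carry another numbering in the labels, so any difference of batch between them and the rest cannot be told apart from F. Scaled to the cardiomyocyte markers, whose sum was 3104 to 21605.5 TPM with F against 6879 to 16498 TPM without, the Esrra average was -0.22 (adjusted p = 0.492) beside a median of 0.59 over all genes. On that scale its sign turned in MI24h_F against MI24h (0.60, adjusted p = 0.213). On the same yardstick Ppargc1a (1.14, adjusted p = 0.0212), Perm1 (0.95, adjusted p = 0.0207), Esrrg (0.93, adjusted p = 0.0128) and Nrip1 (0.86, adjusted p = 0.0412) were called higher with F, as were 35.6% of all genes. With TMM these 4 were at 0.60 ± 0.48, 0.47 ± 0.42, 0.44 ± 0.25 and 0.29 ± 0.25 (SE), with adjusted p from 0.213 to 0.439, while Esrrb was at -0.60 ± 0.40 and Ppargc1b at -0.19 ± 0.32. Without MI6h_R 31, Ppargc1a was called higher with F, at 3.23 in MI6h_F against MI6h_R (adjusted p = 0.0381) and 1.31 on average (adjusted p = 0.0298). Perm1 turned sign without MI6h_F 1, at -0.61 in MI6h_F against MI6h_R and -0.13 on average. Of 26 ERR targets, 6 fell with F and 0 rose (9 rose and 0 fell when scaled to the cardiomyocyte markers), among them Sod2 (-0.75 ± 0.14, adjusted p = 0.00103) and Ndufa8 (-0.65 ± 0.13, adjusted p = 0.00149). Of the 7 enzymes that modify PGC-1α, 3 fell with F, namely Kat2a (-0.49 ± 0.07), Prmt1 (-0.50 ± 0.10) and Fbxw7 (-0.53 ± 0.10), whereas 2 rose and 0 fell when scaled to the cardiomyocyte markers. Fibroblast markers summed to 2385 to 4065 TPM with F against 1442 to 2370 TPM without, and 5 of 12 rose. All 3 red cell markers rose too, and the part of either in these results was not tested. Of the 8 corepressors 2 rose and 2 fell with F. Among them Tbl1xr1 rose by 0.61 ± 0.07 (adjusted p = 5.04e-05), and Pprc1 fell (-0.37 ± 0.09, adjusted p = 0.00694).

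**Figure D3:**
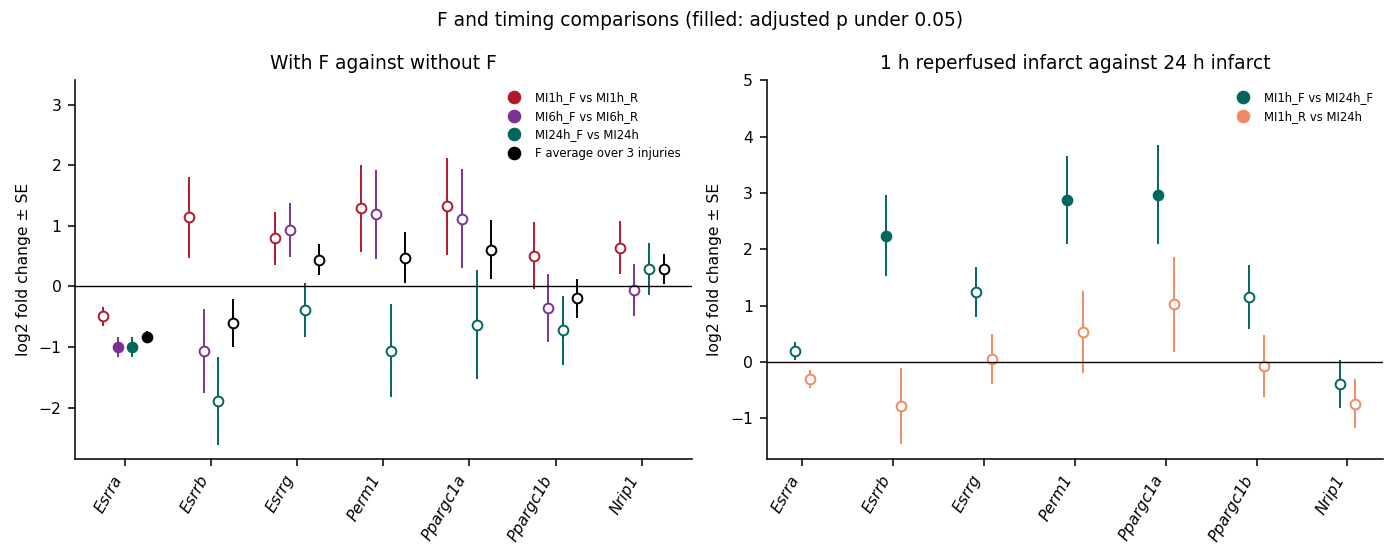
Log2 fold change with its SE of the 7 genes, with F against without F in each injury and on average (left) and in MI1h_F against MI24h_F and MI1h_R against MI24h (right), with filled points at an adjusted p under 0.05. Esrra is below 0 in all 4 contrasts on the left, and Esrrb, Perm1 and Ppargc1a are filled and between 2.24 and 2.97 in MI1h_F against MI24h_F.

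Whether F acted differently in the 3 injuries was tested as a difference of differences, and edgeR called no member. Between MI1h and MI24h the F effect differed by 3.02 ± 0.98 for Esrrb (SE, adjusted p = 0.195), 2.35 ± 1.05 for Perm1 (adjusted p = 0.266) and 0.50 ± 0.23 for Esrra (adjusted p = 0.281). These 3 had an unadjusted p under 0.05. Over all genes 0% were called by edgeR, with 1990 at an unadjusted p under 0.05, 199 by DESeq2 and 0 by limma on log2(TPM + 1). Between MI6h and MI24h 0 of the 7 and 0% of all genes were called by edgeR, with 425 genes and 2 of the 7, Esrrg (1.33 ± 0.63) and Perm1 (2.24 ± 1.06), at an unadjusted p under 0.05. DESeq2 called 1 gene there and limma 0. Between MI1h and MI6h 0 of the 7 and 0.00852% of all genes were called, and Esrra (0.50 ± 0.23) and Esrrb (2.20 ± 0.96) had an unadjusted p under 0.05. DESeq2 and limma called 0 of the 7 in all 3. The early reperfusion calls with F and their absence without F are therefore not shown to differ.

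Over the 18 infarct libraries the likeness of the genes to each other is given as a description, since libraries share their groups and cardiomyocyte content differed between them. The Pearson correlation of log2 CPM was 0.89 between Perm1 and Ppargc1a, 0.85 between Esrrg and Ppargc1a and 0.82 between Esrrg and Perm1. Esrra went with none of these, at 0.04 with Perm1, -0.19 with Ppargc1a and -0.17 with Esrrg. The genes most like Perm1 among 9312 with a mean of at least 5 CPM were Tnni3k, a heart muscle kinase (r = 0.94), Myom2, an M-band protein (0.94), and Slc2a4, the insulin-responsive glucose carrier (0.93). Ppargc1a was most like Adamts19 (0.97), the calcium channel subunit Cacnb2 (0.95) and the growth hormone receptor Ghr (0.95). Esrrg was most like Sspn, a sarcolemmal protein (0.90), Inpp5j (0.89) and Ccdc141 (0.88), and Esrrb like LOC100912282 (0.93), Nrbp2 (0.92) and the heart kinase Alpk3 (0.91). Esrra was most like the TWEAK receptor Tnfrsf12a (0.95), Exosc4 (0.95) and Arfip2 (0.95). With Sham included these 3 correlations were -0.05, 0.73 and 0.75. Among the 18 infarct libraries Esrra split by F without overlap, and the part of that split in these values was not tested. For Ppargc1b they were Dst (0.93), Smarcc2 (0.92) and Zbtb4 (0.92), and for Nrip1 the interleukin-1 receptor Il1r1 (0.955), Cmip (0.955) and Robo1 (0.949).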

How the data were processed

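Poly(A) RNA of 21 infarct-zone samples was sequenced on an Illumina HiSeq, per the labels' protocols. The deposited tables hold expected counts and TPM per symbol, and the submitters' processing notes name STAR 2.7.3a, RSEM 1.3.1 and the rn7 build. Strandedness and annotation are not given in the sources used here. The deposited expected counts were rounded to whole numbers and filtered with filterByExpr (minimum count 10). They were scaled by TMM and fitted with edgeR 4.0.16 (quasi-likelihood test, R 4.3.3) with 7 group terms over all 21 libraries, which share 1 estimate of the spread. Adjusted p-values are Benjamini-Hochberg over all symbols tested, and a call needs an adjusted p under 0.05. The deposited TPM were used for levels between genes and in limma 3.58.1 on log2(TPM + 1) and log2(TPM + 0.1). DESeq2 1.42.0, other scalings, no filter, fits of the groups compared, a replicate block and each library left out were alternatives. Removal of the length trend was added after seeing the data. The tests were checked on simulated data with genes raised in MI1h_F and compared with MI24h_F. That check held no change in Sham and does not cover the comparisons with Sham. Groups follow the sample titles, since another label field shortens MI1h_R and MI6h_R. The 7 genes and the lists of partners, targets and markers were chosen with earlier results of these data known, so they are no independent evidence. Every member is named. Lists are given by counts of members called, and members named are among the 4 with the smallest p in the comparison described, except Rxra and Prkaa2, named after their values were seen. The genes most like a member have the highest Pearson correlation of log2 CPM (prior count 2) over 18 infarct libraries.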

Additional observations from a re-analysis of the deposited data

Results flagged for a closer look

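The F effect on Perm1, the muscle coactivator gene, had opposite signs in the earliest reperfusion and the permanent ligation, and neither effect was called by itself (1.29, adjusted p = 0.374 in MI1h_F against MI1h_R, and -1.06, adjusted p = 0.387 in MI24h_F against MI24h). Every MI1h_F library (21.5 to 40.3 CPM) was above every MI1h_R library (10.4 to 15.9 CPM), and every MI24h_F library (3.18 to 5.06 CPM) was below every MI24h library (8.23 to 9.84 CPM). Opposite signs without overlap in either injury were the rule for flagging, applied to every member and pair of injuries. The lack of overlap is therefore no support, and the unadjusted p below comes from the same selected values. The log2 F effect in MI1h exceeded that in MI24h by 2.35 ± 1.05 (SE), with an unadjusted p = 0.0382 and an adjusted p = 0.266 in edgeR's quasi-likelihood test. It therefore failed the correction over 11742 genes. Cardiomyocyte markers summed to 12645 to 21605.5 TPM in MI1h_F and 13244 to 16498 TPM in MI1h_R, and to 3104 to 6495 TPM in MI24h_F and 10978 to 15730 TPM in MI24h. Scaled to those markers, MI1h_F against MI1h_R gave 1.11 and MI24h_F against MI24h gave 0.45, which are of the same sign. Groups of 3 libraries were not searched for outlying samples.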

How the results depend on the processing

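Over 152 results, the 11 other settings kept the direction and side of the threshold in 1203 cases for single genes, weakened 56 below it, lifted 40 above it and turned the sign in 93. Leaving out each of the 21 libraries did so in 919, 36, 14 and 39 cases. The calls of Perm1 and Esrra against Sham held with every library left out. The causes of the changes were not tested. In MI1h_R against Sham 2 of the 7 were called with library size alone and with limma on TPM at either pseudocount, and 3 with the replicate block. In MI6h_F against Sham limma on TPM called 3 at either pseudocount. In MI1h_F against MI24h_F a fit of these groups alone called 6 and the replicate block 0. Scaling to cardiomyocyte markers in edgeR called 2 in MI1h_F against MI6h_F, among them Esrra as lower (-1.22, adjusted p = 0.0194), and 0 in MI6h_F against MI6h_R. It called 4 in the F average, all higher, beside 35.6% of all genes called higher. For the other counts in this paragraph the share of all genes called in the same fit is not given here, so they describe the members alone. DESeq2 and a fit of the groups alone called 2 in MI24h_F against MI24h. With 1 library left out the number called ran 3 to 6 in MI1h_R against Sham, 0 to 4 in MI1h_F against MI24h_F, 0 to 1 in MI1h_F against MI6h_F, 1 to 2 in MI6h_F against MI6h_R and 1 to 2 in the F average. Without F 1 of 12 libraries resembled its own number most, with correlations of same-numbered deviations between -0.54 and 0.32. With F it was 0 of 9, between -0.33 and 0.15, where MI1h_F 5 had no same-numbered library in another group. Deviations within groups of 3 libraries cannot exclude that the replicate numbers pair the libraries. With scaling to cardiomyocyte markers the sign turned in MI1h_F against Sham for Esrra (0.90), Esrrb (1.39), Esrrg (1.03), Ppargc1a (1.20) and Ppargc1b (1.75), and in MI1h_R against Sham for Esrra (1.55), Esrrb (0.57), Esrrg (0.48), Ppargc1a (0.15), Ppargc1b (1.46) and Nrip1 (2.52). In MI6h_F against Sham for Esrra (2.12), Esrrb (0.99), Esrrg (1.86), Ppargc1a (1.57) and Ppargc1b (2.51), and in MI6h_R against Sham for Esrra (2.72), Esrrb (1.72), Esrrg (0.66) and Ppargc1b (2.58), the sign turned as well. The sign also turned in MI24h_F against Sham for Esrra (2.69), Esrrb (1.05), Esrrg (1.77), Ppargc1a (0.12) and Ppargc1b (2.47), and in MI24h against Sham for Esrra (2.09), Esrrb (1.63), Esrrg (0.72) and Ppargc1b (1.70). In MI1h_R against MI24h for Esrrg (-0.24), and in MI6h_R against MI24h for Esrra (0.63), Esrrb (0.085) and Perm1 (0.16), the sign turned as well. The sign also turned in MI1h_R against MI6h_R for Esrrg (-0.18), and in MI1h_F against MI24h_F for Esrra (-1.80), Esrrg (-0.74) and Ppargc1b (-0.72). In MI6h_F against MI24h_F for Esrrb (-0.068), and in MI1h_F against MI6h_F for Esrra (-1.22), Esrrg (-0.83), Perm1 (-0.080), Ppargc1a (-0.37) and Ppargc1b (-0.76), the sign turned as well. The sign also turned in MI6h_F against MI6h_R for Nrip1 (0.30), and in MI24h_F against MI24h for Esrra (0.60), Esrrg (1.05), Perm1 (0.45), Ppargc1a (0.81) and Ppargc1b (0.77). In the F average for Ppargc1b (0.33), and in the F effect of MI1h minus that of MI24h for Esrra (-1.26), Esrrg (-0.51), Ppargc1b (-0.48) and Nrip1 (-1.29), the sign turned as well. The sign also turned in the F effect of MI6h minus that of MI24h for Esrrb (-0.15) and Ppargc1b (-0.84), and in the F effect of MI1h minus that of MI6h for Esrra (-0.052), Perm1 (-0.20) and Ppargc1a (-0.53). With limma on log2(TPM + 1) the sign turned in MI1h_F against Sham for Esrrb (0.093), Ppargc1a (0.026) and Ppargc1b (0.37), and in MI1h_R against Sham for Nrip1 (0.67). In MI6h_R against Sham for Esrra (0.33) and Ppargc1b (0.21), and in MI24h against Sham for Esrra (0.26), the sign turned as well. The sign also turned in MI1h_R against MI24h for Esrrg (-0.036), and in MI6h_R against MI24h for Esrra (0.072) and Ppargc1a (-0.30). In the F effect of MI1h minus that of MI6h for Esrrg (0.22), the sign turned as well. With limma on log2(TPM + 0.1) the sign turned in MI1h_F against Sham for Esrrb (0.15), Ppargc1a (0.055) and Ppargc1b (0.57), and in MI1h_R against Sham for Nrip1 (1.10). In MI6h_R against Sham for Esrra (0.34) and Ppargc1b (0.37), and in MI24h against Sham for Esrra (0.26), the sign turned as well. The sign also turned in MI1h_R against MI24h for Esrrg (-0.058), and in MI6h_R against MI24h for Esrra (0.073) and Ppargc1a (-0.81). In the F effect of MI1h minus that of MI6h for Esrrg (0.26) and Ppargc1a (-0.14), the sign turned as well. With library size alone the sign turned in MI1h_F against Sham for Ppargc1b (0.0021), and in MI1h_R against Sham for Nrip1 (0.62). In MI6h_R against MI24h for Esrra (0.0061), the sign turned as well. With library size less mitochondrial genome counts the sign turned in MI1h_R against Sham for Nrip1 (0.19). With the replicate block the sign turned in MI1h_R against Sham for Nrip1 (0.16), and in MI1h_R against MI24h for Esrrg (-0.010) and Ppargc1b (0.23). In MI6h_R against MI24h for Esrra (0.028) and Ppargc1a (-0.14), the sign turned as well. With the length trend removed the sign turned in the F effect of MI6h minus that of MI24h for Esrra (0.0080), and in the F effect of MI1h minus that of MI6h for Perm1 (-0.051). With 1 library left out, these values crossed 0: Nrip1 in MI1h_R against Sham from -0.56 to 0.96, Esrrg in MI1h_R against MI24h from -0.15 to 0.34, Ppargc1b in MI1h_R against MI24h from -0.97 to 0.34. So did Esrrb in MI6h_R against MI24h from -0.91 to 0.021, Perm1 in MI6h_R against MI24h from -1.13 to 0.17, Ppargc1a in MI6h_R against MI24h from -1.68 to 0.90. So did Ppargc1b in MI6h_R against MI24h from -0.14 to 0.51, Nrip1 in MI6h_R against MI24h from -0.13 to 0.34, Esrrb in MI1h_R against MI6h_R from -1.11 to 0.12. So did Ppargc1b in MI1h_R against MI6h_R from -1.13 to 0.18, Esrrb in MI6h_F against MI24h_F from -0.17 to 1.11, Perm1 in MI6h_F against MI6h_R from -0.61 to 2.09. So did Nrip1 in MI6h_F against MI6h_R from -0.13 to 0.049, Perm1 in the F average from -0.13 to 0.77, Ppargc1b in the F average from -0.33 to 0.11. So did Esrra in the F effect of MI6h minus that of MI24h from -0.075 to 0.042, Esrrg in the F effect of MI1h minus that of MI6h from -0.45 to 0.47, Perm1 in the F effect of MI1h minus that of MI6h from -0.80 to 1.90. So did Ppargc1a in the F effect of MI1h minus that of MI6h from -1.91 to 1.31. Low counts limit Esrrb (from 4 per library) and Ppargc1a (from 7), so a difference not called there is not shown to be absent.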
